A study of Drosophila melanogaster with 54 samples.

Results

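The genes described here encode subunits of the mitochondrial respiratory chain and of ATP synthase. They were taken as every gene whose symbol begins with ND-, COX, UQCR or ATPsyn and that has a probe set annotated to that gene alone. The array held 62 such probe sets for 60 genes, out of 10844 genes with a probe set of their own. Where a gene had more than 1 probe set, which was so for ATPsynC and ND-MNLL, the probe set whose mean over the 54 arrays was highest was used. RefSeq lists 83 genes with these symbol stems, and 3 further genes were measured only on probe sets shared with another gene. The 60 genes comprise 26 of complex I, 3 of complex III, 7 of complex IV and 10 of ATP synthase, 46 chief subunits in all, and 14 second copies, which are duplicates of a chief subunit gene. The second copies are ND-51L1, ND-51L2, ND-20L, ND-24L, ND-B14.5AL, UQCR-14L, COX4L, COX5BL, COX6AL2, COX7AL, ATPsynCF6L, ATPsynGL, ATPsynbetaL and ATPsynepsilonL. The rule itself uses no difference between groups.

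The data are 54 Affymetrix DrosGenome1 arrays, hybridised with RNA of cells sorted out of Drosophila melanogaster embryos, in 18 groups of 3 arrays and 3 numbered sets. All embryos carried Twi-GAL4 and UAS-GFP, which mark cells that express Twist, and each set held GFP positive and GFP negative cells of wild type embryos. Set 1 added UAS-lambda-Top (EGFR gain of function), UAS-lambda-Htl with UAS-Dof (FGFR gain of function) and spi mutants. Set 2 added the activated transgenes UAS-Arm s10, UAS-Ras1 Act, both of these together (Arm+Ras), UAS-Pnt P2VP16 and UAS-Tkv QD, and wg mutants, while set 3 added Dl and lmd mutants and UAS-Notch intra. Each transgene was driven by the same Twi-GAL4 as the GFP, while spi, wg, Dl and lmd embryos were mutants whose alleles are not named, and only GFP positive cells were measured in every genotype other than wild type. The embryos were aged 5.5 to 7.5 h after egg deposition, except that the Dl, lmd and Notch embryos were aged 6 to 8 h. Age and genotype can therefore not be told apart where these 3 groups are compared with their wild type.

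Complex I oxidises NADH and passes electrons to ubiquinone, complex III passes them on to cytochrome c, and complex IV reduces oxygen with them. The protons that these complexes move across the inner mitochondrial membrane flow back through ATP synthase, whose rotating shaft drives the synthesis of ATP. All the genes described here are nuclear, and their products assemble with subunits encoded in the mitochondrial DNA. In muscle, which arises from the sorted mesoderm, mitochondria and this set of genes become abundant during development, and in adult flies several of the second copies are expressed mainly in testis.

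Each array gives 1 log2 expression value for a probe set. Levels were compared only within a numbered set, because the array medians differed between the sets, and never between probe sets. Differences are given on the log2 scale ± SE, and a gene was called changed where its p-value from limma, adjusted over all 13966 probe sets, was below 0.05. The labels do not say whether the 3 arrays of a group came from embryos collected separately, so the p-values measure only the spread between these samples. The gate was checked against its markers. Of 8 listed mesoderm genes 6 were measured, and 6 of 6 were higher in GFP positive cells, while 5 of 5 ectoderm and 4 of 4 neural genes were lower. Of 5 hemocyte genes, whose cells also arise from mesoderm, 4 were higher. Fewer cells of a type and less RNA per cell cannot be told apart in such bulk samples. Among the transgenes, the targeted transcript is given only for Egfr, htl and tkv, and the transcripts of wg and Dl are not given. Each of Egfr, htl and tkv was higher than in wild type where its transgene was used. Egfr was higher by 3.41 and 0.70 on its 2 probe sets, htl by 1.87 and tkv by 4.04 and 1.61, the last without passing (adjusted p = 0.167). The spi transcript read 9.35 to 9.39 in spi mutants and 9.31 to 9.40 in wild type. The lmd transcript read 8.77 to 9.05 in lmd mutants and 8.31 to 8.67 in wild type (0.44 ± 0.12, adjusted p = 0.149), so that its level was not lower, and with the alleles unnamed these 2 transcripts do not check the labels. Among the wild type GFP positive arrays, 1 stood apart for the respiratory genes, and the arrays of the other groups were not ranked. Wild type GFP positive array 2A was the lowest of its 3 arrays for 49 of the 60 genes, against 6 for array 2B and 5 for array 2C, so comparisons within set 2 are also given without it.

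Probe sets of the chief subunits gave signals well above the array median, and many of those of the second copies did not. These positions describe the probe sets and do not rank the genes by expression. Group means of the 46 chief subunits had a median of 8.20, and 44 of them lay above the array median on every array, whereas those of the 14 second copies had a median of 3.97 and 7 of the 14 lay below the array median on most arrays. The median SD among the 3 arrays of a group was 0.11 for the chief subunits and 0.42 for the second copies. A change of given size was therefore more easily called in most chief subunits than in most second copies, of which ATPsynbetaL, ND-B14.5AL and ND-51L2 were never below the array median. Over the gate and the 12 genotypes, 46 of the 60 genes were called in at least 1 comparison and 14 in none, namely 11 second copies and the chief subunits ATPsynbeta, COX7C and ND-B8. COX7C lay below the array median on all 54 arrays and ND-B8 on 42 of them, so their missing calls do not show stable expression. Of all probe sets, 40.5% were called in at least 1 of these 13 comparisons, and of those among the brighter in some comparison 64.1%, where 48 of 52 of these genes were. Each count of called respiratory genes is set below beside the share of all probe sets called and, for the larger ones, beside the share called when only the brighter probe sets are tested.

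**Figure D1:**
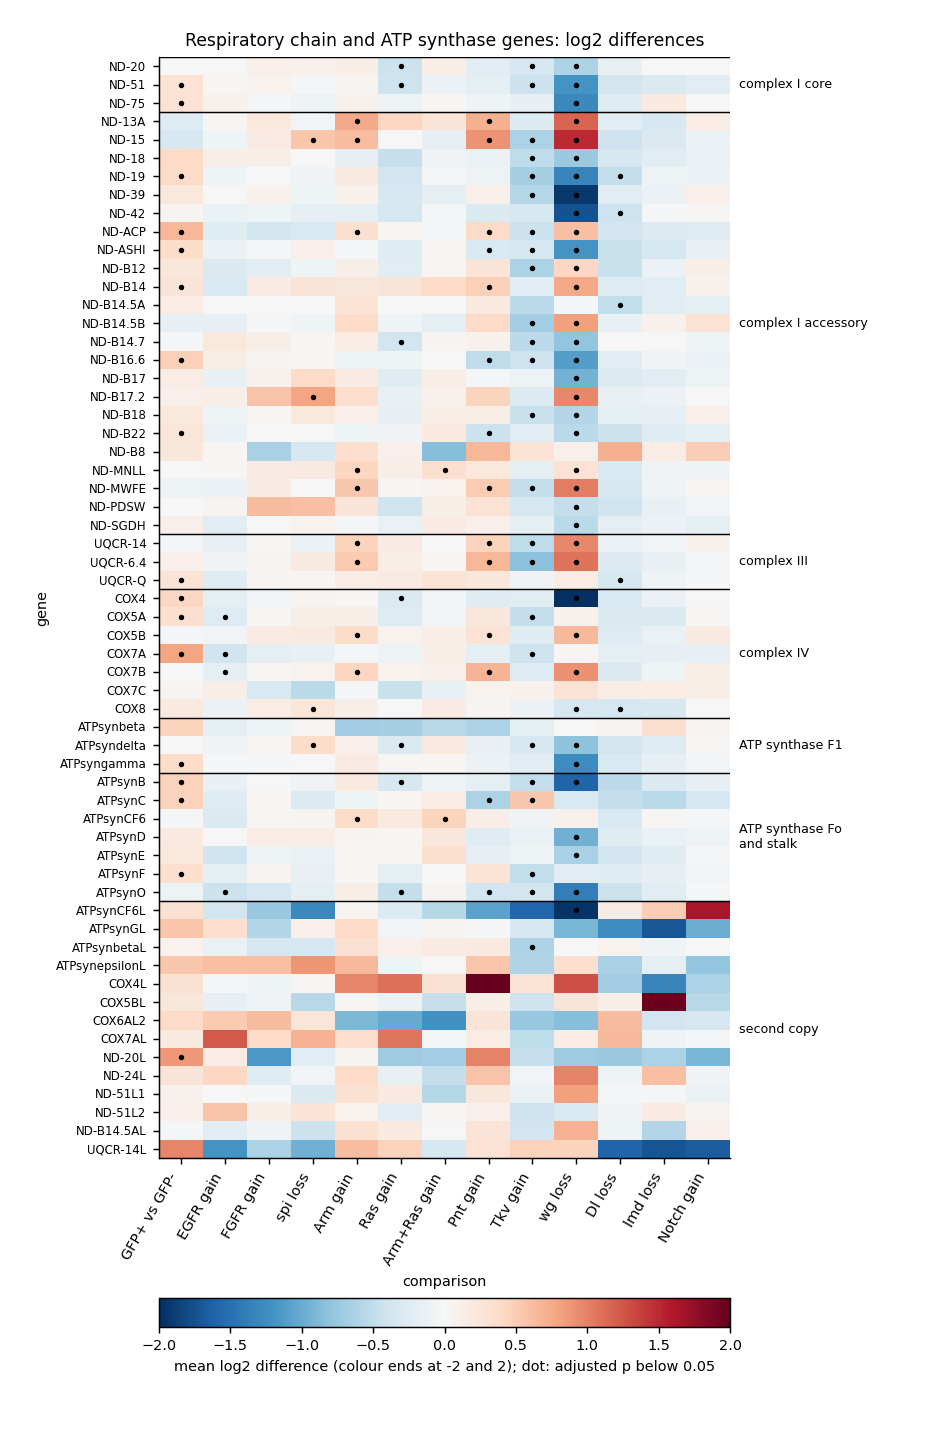
Mean log2 difference of each of the 60 genes (rows, grouped by complex) in the comparison of GFP positive with GFP negative wild type cells and of each genotype with the wild type GFP positive cells of its set (columns). Colour runs from -2 (blue) to 2 (red) and is cut there, and a dot marks an adjusted p below 0.05. Dots are most frequent in loss of wg (37 genes) and gain of Tkv (24 genes) and nearly absent among the second copies.

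A minority of respiratory chain and ATP synthase genes were higher in the sorted mesoderm, and none was lower. Between GFP positive and GFP negative wild type cells, 17 of the 60 genes rose and none fell, and 47 of the 60 differences were above 0. The share that rose, 28.3%, compares with 8.03% of all probe sets that rose and 8.66% that fell. Among the brighter probe sets alone, 19 of 52 of these genes rose and 1 fell, against 15.7% of probe sets that rose and 16.5% that fell. The median difference of the 60 genes was 0.21, and that of all probe sets was 0.003. The largest increase among the chief subunits was 0.78, in COX7A.

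In complex IV, 3 of 7 subunits rose. COX7A, one of the small nuclear-encoded subunits, read 9.70, 10.00 and 9.75 in the GFP positive and 8.83, 8.97 and 8.75 in the GFP negative arrays of set 1. In set 2 its values were 9.84, 9.99 and 9.93 against 8.99, 8.91 and 9.11, and in set 3 8.82, 8.81 and 8.71 against 8.23, 8.26 and 8.44. Every GFP positive array lay above every GFP negative array in each set, and the difference over the 18 arrays was 0.78 ± 0.07 (adjusted p = 4.25e-07). COX4, a nuclear-encoded subunit that contacts the catalytic core, read 11.01, 11.20 and 11.32 against 10.16, 10.39 and 10.30 in set 2, 10.46, 10.63 and 10.51 against 10.15, 10.24 and 10.18 in set 1 and 9.79, 9.82 and 9.94 against 9.98, 9.85 and 9.69 in set 3. The gates of COX4 were apart in sets 1 and 2 and overlapped in set 3. Its overall difference was 0.42 ± 0.10 (adjusted p = 0.00617), and COX5A, which binds the matrix side of the enzyme, rose by 0.34 ± 0.06 (adjusted p = 0.00068).

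In complex I, 2 of 3 core subunits and 6 of 23 accessory subunits rose. ND-ACP, the mitochondrial acyl carrier protein, read 8.54, 8.45 and 8.43 in GFP positive and 7.79, 7.58 and 7.36 in GFP negative cells of set 1. Its values were 8.59, 8.77 and 8.83 against 8.11, 8.04 and 8.24 in set 2, and 7.79, 7.34 and 7.64 against 7.17, 7.21 and 6.87 in set 3. The gates did not overlap in any set, and the difference was 0.67 ± 0.08 (adjusted p = 1.29e-05). The accessory subunits ND-B16.6, ND-19 and ND-ASHI rose by 0.47, 0.38 and 0.36 (adjusted p = 0.000618, 0.00198 and 0.00307), and ND-B14 and ND-B22 by 0.26 and 0.24. Of the core subunits, ND-75, which carries iron-sulfur clusters, rose by 0.30 ± 0.09 (adjusted p = 0.0291) and ND-51, which binds NADH, by 0.29 ± 0.08 (adjusted p = 0.0199). The core subunit ND-20 differed by 0.00 ± 0.08 (adjusted p = 0.984).

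In complex III only UQCR-Q, a small accessory subunit, was called, at 0.27 ± 0.06 (adjusted p = 0.00583). In ATP synthase, the rotating shaft subunit ATPsyngamma rose by 0.37 ± 0.08 (adjusted p = 0.00273) and the stalk subunit ATPsynB by 0.46 ± 0.08 (adjusted p = 0.000518). ATPsynC, which forms the proton-driven ring, rose by 0.46 ± 0.09 (adjusted p = 0.000795) and the membrane subunit ATPsynF by 0.34 ± 0.09 (adjusted p = 0.0157). The other probe set of ATPsynC gave 0.12 ± 0.14 (adjusted p = 0.676). ATPsynbeta, the catalytic subunit, had a difference of 0.44 ± 0.20 (adjusted p = 0.159), and its values spread widely, for example 6.39, 5.44 and 6.26 in the GFP negative arrays of set 2. ATPsyndelta, part of the central stalk, differed by 0.00 and the membrane subunit ATPsynE by 0.21 ± 0.09 (adjusted p = 0.107). Among the second copies only ND-20L rose, by 0.87 ± 0.26 (adjusted p = 0.0252). UQCR-14L had a larger difference of 0.98 ± 0.42 (adjusted p = 0.135) that did not pass. Its GFP positive arrays of set 1 read 2.88, 1.44 and 3.74. ATPsynbetaL differed by 0.07 ± 0.11 (adjusted p = 0.763).

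Of the 17 calls, 13 held when any single array was left out. Those of ND-B22, ND-B14 and ND-20L were lost without GFP positive array 2B (adjusted p = 0.0968, 0.063 and 0.0538), and that of ND-75 without array 2C (adjusted p = 0.0639). Without a variance trend in the fit, 11 genes were called.

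The gate difference was not of one size in the 3 sets. A test of the difference between sets called 14 of the 60 genes, against 7.94% of all probe sets and 18.8% of the brighter ones, for which it called 16 of 52 of these genes. The median gate difference of the 60 genes was 0.14 in set 1, 0.35 in set 2 and 0.10 in set 3. Fitted alone, set 1 called 13 genes, set 2 called 20 and set 3 called 2. The shares of all probe sets called in these separate fits are not given here. These counts alone therefore do not show a difference between sets particular to the respiratory genes. The 17 genes called over all sets had a positive difference in every set, which was highest in set 2 for 12 of them and lowest in set 3 for 13.

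COX4 stood at 0.35, 0.90 and 0.01 in sets 1, 2 and 3 (adjusted p of the difference = 0.000842). ND-B16.6 stood at 0.57, 0.78 and 0.05 (adjusted p = 0.000801), and COX7A, COX5A, ATPsynB and ATPsyngamma were likewise lowest in set 3. The order was another for the small complex III subunit UQCR-6.4, at 0.63, -0.34 and 0.04 (adjusted p = 0.00239), for UQCR-14, and for the accessory subunit ND-15, at -0.07, -0.76 and -0.11 (adjusted p = 0.044). These 3 were lowest in set 2. The remaining 5 genes were ND-18, ND-20, ND-42, COX8 and ATPsyndelta, each highest in set 2. Control probe sets also differed between the gates of set 2 without overlap. For the eIF-4a control, the signal of the 3′ probe set less that of the 5′ one, a measure of how far the labelled RNA reaches from the 3′ end, was 2.13 in GFP positive and 2.33 in GFP negative cells, and the mean of 9 hybridization controls was 9.32 against 10.2. Their part in the differences between sets was not tested. Without GFP negative array 1C, GFP positive array 1C or GFP negative array 2A, the test of the difference between sets called 8, 9 and 9 genes.

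**Figure D2:**
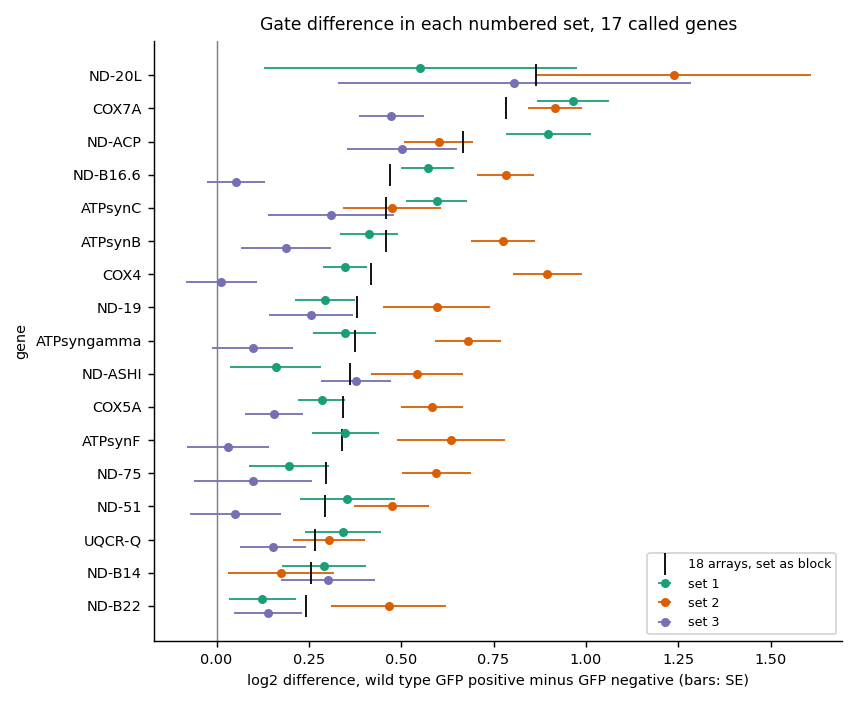
Log2 difference of the GFP positive from the GFP negative cells of wild type embryos in each numbered set (coloured points with SE, 3 arrays per gate) and over all 18 arrays (black bars), for the 17 genes called. All points lie above 0, those of set 2 furthest to the right for 12 genes, and those of set 3 furthest to the left for 13.

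Of 29 measured genes of the same pathways, for the remaining subunits, the carriers, the tricarboxylic acid cycle and mitochondrial DNA, 9 rose and none fell between the gates. Of all probe sets 8.03% rose and 8.66% fell, and of the brighter ones 15.7% and 16.5%. The count of 29 was not limited to brighter probe sets. The genes that rose were blw, the alpha subunit of ATP synthase (0.54 ± 0.08, adjusted p = 7.2e-05), the complex IV subunit levy (0.45), the complex II subunit SdhC (0.33), the outer membrane channel porin (0.45), Idh3a of the tricarboxylic acid cycle (0.29), the copper chaperone Scox (0.82), the mitochondrial DNA-binding gene mtSSB (0.70), mRpL12 (0.49) and ewg, related to a mammalian activator of such genes (0.50).

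Within set 1, activation of the receptors changed few of these genes. In EGFR gain of function, 4 genes fell and none rose, against 1.43% of all probe sets that fell and 1.30% that rose. ATPsynO, which links the catalytic head of ATP synthase to its peripheral stalk, read 8.43, 8.65 and 8.60 against 8.95, 9.03 and 9.00 in wild type. The groups did not overlap, and the difference was -0.43 ± 0.09 (adjusted p = 0.0148). The other 3 belong to complex IV: COX7A (-0.39 ± 0.08, adjusted p = 0.0199), COX5A (-0.26 ± 0.05, adjusted p = 0.0204) and COX7B (-0.18 ± 0.04, adjusted p = 0.0434). COX7A read 9.39, 9.41 and 9.48 in EGFR gain of function, which is still above all GFP negative arrays of the set. Each of these 4 calls was lost when some single array was left out. The highest adjusted p was 0.0714 for ATPsynO and 0.0784 for COX7A without EGFR array 1A, and 0.0921 for COX5A and 0.177 for COX7B without EGFR array 1C. Without EGFR array 1A, EGFR array 1C, wild type array 1B or wild type array 1C, 0, 2, 1 and 2 genes were called. Of the other pathway genes, levy (-0.31), the epsilon subunit gene sun (-0.41), mAcon1 (-0.33) and ewg (-1.16) fell and none rose.

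In FGFR gain of function none of the 60 genes passed with limma, while 11 had an unadjusted p below 0.05, and 2.21% of all probe sets were called. Their differences had a median of 0.02 and ran from -1.15 to 0.64. Without FGFR array 1B or wild type array 1B, 1 gene was called. In spi mutants, where the gene of an EGFR ligand is affected, 4 genes rose and none fell, against 1.75% of all probe sets that rose and 1.43% that fell. The accessory subunit ND-15 read 7.65, 7.89 and 7.69 in spi mutants and 7.11, 7.30 and 7.16 in wild type, a rise of 0.55 ± 0.10 (adjusted p = 0.0058). ATPsyndelta rose by 0.36 ± 0.06 (adjusted p = 0.00677), from 8.75, 8.81 and 8.69 to 9.05, 9.10 and 9.18. The groups did not overlap for either gene. ND-B17.2, an accessory subunit of complex I, rose by 0.79 ± 0.19 (adjusted p = 0.0379) and COX8 by 0.25 ± 0.06 (adjusted p = 0.0372), but these calls were lost without wild type array 1C (adjusted p = 0.127) and without spi array 1B (adjusted p = 0.144). Without spi array 1A, spi array 1B or wild type array 1C, 2 genes were called. Of 4 neural markers 3 were lower in spi mutants and of 5 hemocyte markers 1 was higher, and their part in the result was not tested. Among the other pathway genes, ScsbetaG, TFAM and ewg fell in FGFR gain of function (-0.54, -0.44 and -1.18), and in spi mutants Idh3b rose and TFAM fell (0.65 and -0.33).

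Loss of wg, a secreted signal of the Wnt family, gave the most calls, and in both directions. In wg mutants 24 genes fell and 13 rose. Those are 40.0% and 21.7% of the 60, against 15.5% of all probe sets that fell and 11.0% that rose. Among the brighter probe sets alone, 24 of 52 of these genes fell and 15 rose, against 30.5% and 18.9% of probe sets. Of the 10 chief ATP synthase genes 6 were lower and none higher, and of the 3 of complex III 2 were higher. Complex I was divided, with 15 lower and 9 higher of 26, and complex IV had 2 of 7 in each direction. Genes of these complexes outside the symbol rule, given below, went in both directions.

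COX4 read 9.07, 9.16 and 9.14 in wg mutants against 11.01, 11.20 and 11.32 in wild type, a difference of -2.05 ± 0.08 (adjusted p = 4.92e-14), or 4.15-fold. All 3 mutant arrays also lay below the GFP negative arrays, at 10.16, 10.39 and 10.30. ND-39 read 6.08, 5.57 and 5.65 against 7.55, 7.72 and 7.80, a difference of -1.92 ± 0.13 (adjusted p = 3.13e-10). ND-42, a further accessory subunit of complex I, read 6.77, 6.96 and 7.17 against 8.67, 8.75 and 8.71, and ATPsynB read 7.40, 7.48 and 7.36 against 8.89, 9.05 and 9.09. Their differences were -1.74 ± 0.10 (adjusted p = 1.68e-11) and -1.59 ± 0.08 (adjusted p = 1.15e-12). For each of these 4 genes the mutant arrays were far below all other arrays of the set.

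All 3 core subunits of complex I fell, with differences of -1.30 ± 0.15 (adjusted p = 6.06e-07) for ND-75, -1.19 ± 0.09 (adjusted p = 1.87e-09) for ND-51 and -0.62 ± 0.07 (adjusted p = 6.81e-07) for ND-20. The accessory subunits ND-19 and ND-ASHI had differences of -1.33 and -1.19. Those of ND-B16.6, ND-B17, ND-B14.7, ND-18, ND-B18, ND-B22, ND-SGDH and ND-PDSW lay between -1.10 and -0.48. In ATP synthase, ATPsynO stood at -1.38 ± 0.11 (adjusted p = 2.74e-09), ATPsyngamma at -1.26 ± 0.10 (adjusted p = 1.73e-09), ATPsynD, of the peripheral stalk, at -0.97, ATPsyndelta at -0.80 and ATPsynE at -0.65. In complex IV, COX8 also fell by 0.34 ± 0.07 (adjusted p = 0.000965). The second copy ATPsynCF6L read 1.75, 3.03 and 2.15 against 3.85, 4.46 and 4.49 (-1.96 ± 0.63, adjusted p = 0.0242).

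The genes that rose were led by ND-15, which read 9.96, 10.11 and 10.06 in wg mutants against 8.33, 8.72 and 8.59 in wild type, a rise of 1.50 ± 0.09 (adjusted p = 1.66e-11). ND-13A, another accessory subunit, read 9.44, 9.54 and 9.37 against 7.87, 8.47 and 8.50 and rose by 1.17 ± 0.13 (adjusted p = 3.77e-07). Wild type array 2A was the lowest of its 3 arrays for all 13 genes that rose, and every wg array of ND-13A lay above every wild type array. UQCR-6.4 read 11.48, 11.74 and 11.61 against 10.16, 10.73 and 10.68 (1.08 ± 0.12, adjusted p = 2.34e-07) and UQCR-14 rose by 0.96 ± 0.08 (adjusted p = 6.17e-09). In complex I, ND-MWFE rose by 1.02 ± 0.12 (adjusted p = 7.68e-07) and ND-B17.2 by 0.97 ± 0.17 (adjusted p = 0.000104), and the differences of ND-B14.5B, ND-B14, ND-ACP, ND-B12 and ND-MNLL ran from 0.82 to 0.30. In complex IV, COX7B rose by 0.91 ± 0.10 (adjusted p = 1.5e-07) and COX5B by 0.65 ± 0.08 (adjusted p = 2.23e-06). ATPsynbeta was at 7.35, 6.92 and 7.11 against 7.60, 6.87 and 6.90, so that these groups overlapped.

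**Figure D3:**
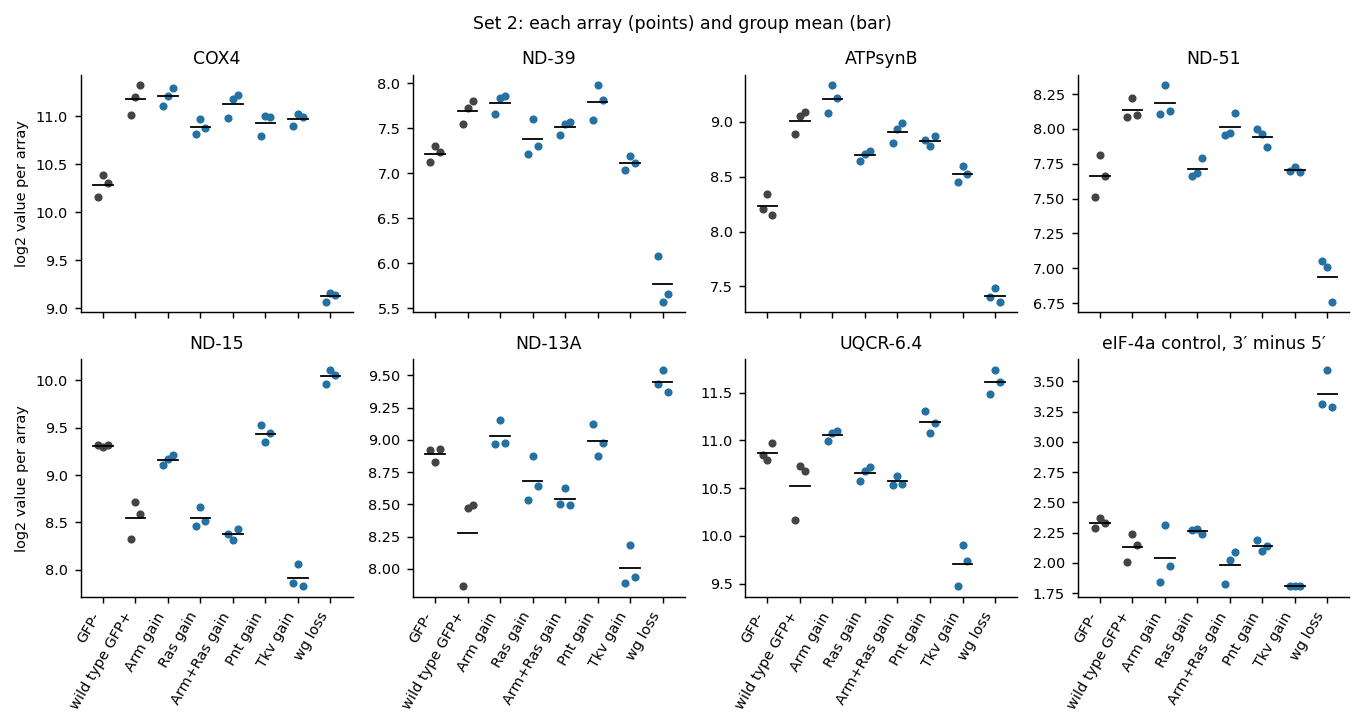
Log2 values of 7 genes on each array of set 2 (points, with the group mean as a bar), and the eIF-4a control on the same arrays, as 3′ minus 5′ signal. COX4, ND-39, ATPsynB and ND-51 are lowest and ND-15, ND-13A and UQCR-6.4 highest in loss of wg, whose eIF-4a difference is also above that of every other array shown.

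Both directions held against single arrays, as 34 of the 37 calls remained whichever array was left out. Those of ND-B12, ND-PDSW and ATPsynCF6L were lost without wild type array 2A, wild type array 2C and wg array 2A (adjusted p = 0.312, 0.108 and 0.0936). The wg arrays also stood apart in their control probe sets. The 3′ minus 5′ difference was 3.40 against 2.13 in wild type for eIF-4a, 1.38 against 0.92 for actin and 1.17 against 0.16 for GAPDH, and the hybridization controls were 11.0 against 9.32, in each case without overlap. Their part in the result was not tested. With the eIF-4a difference as a covariate, chosen after these controls were seen, 15 genes were called, and 14 of the 37 calls remained. Because the eIF-4a difference did not overlap between wg and wild type arrays, it cannot be fully told apart from the genotype. Calls kept or lost in that fit therefore do not assign a cause.

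Of the 14 calls that remained 13 were decreases. COX4 was then at -2.50 (adjusted p = 5.45e-06), ATPsynB at -2.26 (adjusted p = 8.74e-07) and ND-39 at -2.04 (adjusted p = 0.00738). ND-42, ND-51, ND-ASHI, ND-B16.6, ND-B22, ATPsynO, ATPsyngamma, ATPsyndelta, ATPsynD and ATPsynE also kept their calls. Other decreases lost the call at differences as large as before, among them ND-75 (-1.61 ± 0.49, adjusted p = 0.0595), ND-19 (-1.57 ± 0.46, adjusted p = 0.0518), ND-B17 (-1.20 ± 0.35, adjusted p = 0.0508), ND-B14.7 (-0.98 ± 0.29, adjusted p = 0.0502) and COX8 (-0.73 ± 0.22, adjusted p = 0.0528). The SE were larger than without the covariate, as for ND-75 at 0.49 against 0.15. Of the 13 genes that rose only ND-15 did, at 1.06 (adjusted p = 0.0195), while ND-13A was at 0.31 (adjusted p = 0.784) and UQCR-6.4 at 0.41 (adjusted p = 0.65). ND-B17.2 had a larger difference than before, at 1.42 ± 0.54 (adjusted p = 0.153), and ND-ACP was at 0.48 ± 0.29 (adjusted p = 0.444). ND-MNLL, ND-B14.5B and ND-B12 turned negative without passing, at -0.15 ± 0.23, -0.04 ± 0.38 and -0.60 ± 0.43 (adjusted p = 0.843, 0.979 and 0.559). The gene called only with the covariate was the second copy COX4L, at 9.06 ± 2.49 (adjusted p = 0.0370). That value is far outside its differences without the covariate, which ran from -1.32 to 2.81 over the gate and the genotypes. COX4L lay below the array median on 52 of the 54 arrays, and its wg arrays read 3.78, 1.14 and 3.67.

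**Figure D4:**
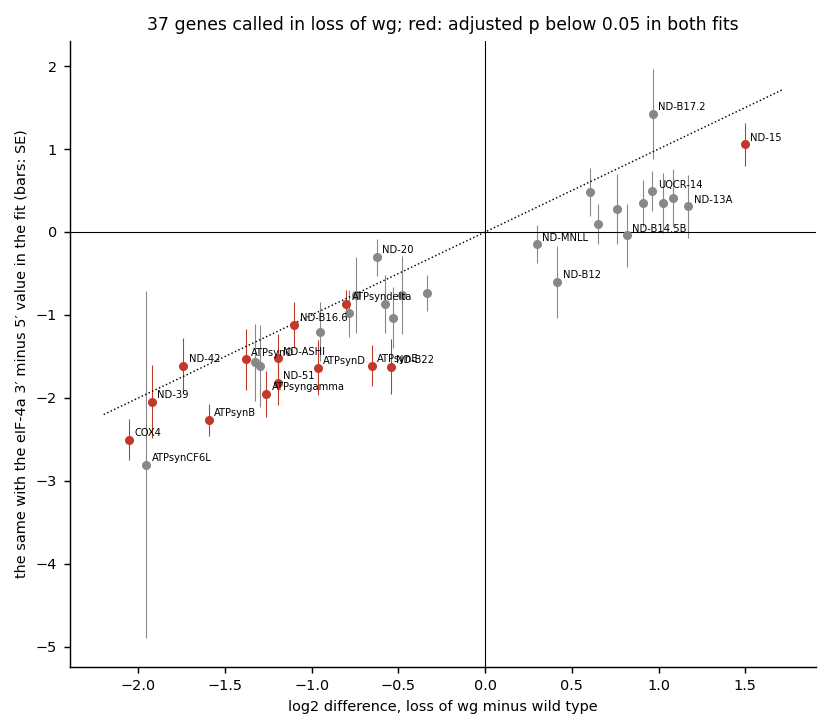
Log2 difference between wg mutant and wild type GFP positive cells (horizontal axis) and the same difference with the eIF-4a 3′ minus 5′ value of each array in the fit (vertical axis, with SE), for the 37 genes called. Red points, named, passed the threshold in both fits, and 13 of these 14 are decreases. Grey points lost their call, and the dotted line marks equal values.

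The other pathway genes were also divided in wg mutants, where 16 of 29 fell and 3 rose, against 15.5% and 11.0% of all probe sets. Of the brighter probe sets 30.5% fell and 18.9% rose, and the count of 29 was not limited to those. Results with the eIF-4a covariate are not given for these genes. Those that fell included Cyt-c1 (-1.70) and RFeSP, the Rieske protein (-1.51), both of complex III, as well as levy (-1.33), blw (-1.17), porin (-0.98), the 3 measured complex II genes SdhB, SdhC and SdhD (-0.44 to -0.39) and PolG1, the mitochondrial DNA polymerase (-1.64). The tricarboxylic acid cycle genes Idh3g (-2.02), ScsbetaG (-1.18), Scsalpha1 (-1.03), ScsbetaA (-0.58) and mAcon1 (-0.39) fell too, with TFAM (-0.62) and Scox (-0.60). The small subunit genes ox of complex III (1.63) and sun of ATP synthase (2.02) rose, as did mtSSB (0.59). Of 6 mesoderm markers 3 were lower in wg mutants. The mean of the mesoderm list was between 5.76 and 6.11 on the mutant arrays and between 6.77 and 6.82 on the wild type arrays. Its part in the decreases was not tested.

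In gain of function of Tkv, a receptor for the signal Dpp, 23 genes fell and 1 rose, and 55 of the 60 differences were below 0. The shares of 38.3% lower and 1.67% higher compare with 3.95% and 4.43% of all probe sets, and with 9.58% and 8.96% of the brighter ones, among which 26 of 52 of these genes fell. The median difference was -0.35, against -0.02 for all probe sets.

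UQCR-6.4 read 9.47, 9.91 and 9.74 in Tkv gain of function against 10.16, 10.73 and 10.68 in wild type (-0.82 ± 0.12, adjusted p = 9.02e-05), and UQCR-14 fell by 0.51 ± 0.08 (adjusted p = 0.000304). ND-B14.5B, an accessory subunit of complex I, read 8.88, 9.44 and 9.09 against 9.50, 9.96 and 10.00 (-0.69 ± 0.13, adjusted p = 0.00137). ND-15 read 7.86, 8.06 and 7.83 against 8.33, 8.72 and 8.59 (-0.63 ± 0.09, adjusted p = 5.36e-05). In all 3 of these genes the lowest wild type array was 2A, and it still lay above the Tkv arrays. ND-19 and ND-B12 followed at -0.66 and -0.64, and ND-39, ND-B14.7, ND-18, ND-MWFE, ND-B18, ND-ACP, ND-B16.6 and ND-ASHI lay between -0.58 and -0.35.

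Among the core subunits of complex I, ND-51 read 7.70, 7.73 and 7.69 against 8.09, 8.22 and 8.10 (-0.43 ± 0.09, adjusted p = 0.00468) and ND-20 fell by 0.34 ± 0.07 (adjusted p = 0.00443). In complex IV, COX5A fell by 0.47 ± 0.07 (adjusted p = 0.000214) and COX7A fell by 0.41 ± 0.07 (adjusted p = 0.000329). In ATP synthase, ATPsynB read 8.45, 8.60 and 8.52 against 8.89, 9.05 and 9.09 (-0.49 ± 0.08, adjusted p = 0.000247), while ATPsynF, ATPsynO and ATPsyndelta stood at -0.50, -0.36 and -0.32. The second copy ATPsynbetaL fell by 0.61 ± 0.16 (adjusted p = 0.0194). The exception was ATPsynC, which read 8.12, 8.24 and 8.26 against 7.89, 7.61 and 7.49 and rose by 0.54 ± 0.12 (adjusted p = 0.00532). Its other probe set was higher by 0.49 without passing (adjusted p = 0.451).

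Of the 24 calls, 15 held without any single array, and without wild type array 2A 33 genes were called, 32 of them lower. The calls of ATPsynF, ATPsynO, ATPsynbetaL, ND-18 and ND-39 were lost without wild type array 2C (adjusted p between 0.0518 and 0.302), those of ND-ASHI, ND-B12 and ND-MWFE without wild type array 2B (between 0.0817 and 0.159) and that of ND-B18 without Tkv array 2A (0.0897). The Tkv arrays had lower 3′ minus 5′ differences than wild type, at 1.81 against 2.13 for eIF-4a, 0.58 against 0.92 for actin and -0.56 against 0.16 for GAPDH. With the eIF-4a covariate 11 genes were called, 10 of them lower, including UQCR-6.4 (-0.65, adjusted p = 0.00996) and ND-15 (-0.52, adjusted p = 0.00579), and ATPsynC stayed higher (0.62, adjusted p = 0.0252). Of 5 hemocyte markers 4 were higher, and the mean of that list was between 8.07 and 8.30 on the Tkv arrays and between 6.90 and 7.21 in wild type. Its part in the decreases was not tested. Of the other pathway genes 5 fell, RFeSP (-0.54), ox (-0.44), ScsbetaG (-0.52), mRpL12 (-0.36) and TFAM (-0.52), a packaging factor of mitochondrial DNA, and Idh3a and mAcon1 of the tricarboxylic acid cycle rose (0.60 and 0.71).

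Activated Arm, which transmits the Wnt signal, raised genes of complexes I, III and IV and 1 of ATP synthase. In Arm gain of function 10 genes rose and none fell, or 16.7% against 2.55% of all probe sets that rose and 4.37% that fell. Among the brighter probe sets 12 of 52 rose, against 5.73%. ND-15 read 9.11, 9.17 and 9.21 against 8.33, 8.72 and 8.59 in wild type (0.62 ± 0.09, adjusted p = 6.02e-05). ND-13A read 8.97, 9.15 and 8.97 against 7.87, 8.47 and 8.50 (0.75 ± 0.13, adjusted p = 0.000697). Both genes were higher on every Arm array than on any wild type array. UQCR-14 and UQCR-6.4 rose by 0.45 and 0.53 (adjusted p = 0.00109 and 0.00638), COX7B and COX5B by 0.43 and 0.37 (adjusted p = 0.00685 and 0.00644), and ND-MWFE, ND-MNLL and ND-ACP by 0.54, 0.43 and 0.32. ATPsynCF6, a peripheral stalk subunit, rose by 0.37 ± 0.09 (adjusted p = 0.0204).

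Wild type array 2A was the lowest of its 3 arrays for all 10 of these genes. Without it 6 genes were called, and ATPsynCF6, COX5B, ND-ACP and ND-MWFE were not (adjusted p = 0.152, 0.0563, 0.177 and 0.06). All 10 passed with the eIF-4a covariate, and the hybridization controls were at 9.99 on the Arm arrays against 9.32 in wild type. Of the other pathway genes ox (0.65) and sun (0.96) rose and mAcon1 fell (-0.71), and 3 of 4 neural markers were lower.

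In Pnt gain of function, which used an activated form of a transcription factor that acts downstream of EGFR and FGFR, 9 genes rose and 5 fell. Of all probe sets 3.87% rose and 4.98% fell, and of the brighter ones 8.52% and 11.4%, among which 11 of 52 of these genes rose and 9 fell. Of 5 ectoderm markers 3 were lower, as were 1 of 4 neural and 1 of 5 hemocyte markers, and their part in the result was not tested. ND-15 read 9.52, 9.35 and 9.44 and rose by 0.89 ± 0.09 (adjusted p = 4.25e-07), and ND-13A read 9.12, 8.88 and 8.97 and rose by 0.71 ± 0.13 (adjusted p = 0.000756). COX7B, at 11.32, 11.30 and 11.48 against 10.37, 10.83 and 10.85, rose by 0.68 ± 0.10 (adjusted p = 4.73e-05). UQCR-6.4 and UQCR-14 rose by 0.67 and 0.45 (adjusted p = 0.000498 and 0.000704), and ND-MWFE, ND-B14, ND-ACP and COX5B by 0.51, 0.48, 0.38 and 0.28. The genes that fell were ATPsynC, at 7.24, 6.86 and 6.99 against 7.89, 7.61 and 7.49 (-0.63 ± 0.12, adjusted p = 0.00103), ND-B16.6 (-0.51 ± 0.08, adjusted p = 0.000253), ND-B22 (-0.44 ± 0.13, adjusted p = 0.0321), ATPsynO (-0.38 ± 0.11, adjusted p = 0.0348) and ND-ASHI (-0.31 ± 0.09, adjusted p = 0.0413). The ATPsynC groups did not overlap, and its other probe set differed by -0.07 (adjusted p = 0.953). The second copy with the largest difference, COX4L at 2.81 ± 0.93, did not pass (adjusted p = 0.0693).

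Of the 14 calls in Pnt gain of function, 7 held without any single array. The calls of COX5B, ND-ACP, ND-B14 and ND-MWFE were lost without wild type array 2A (adjusted p = 0.205, 0.0541, 0.178 and 0.0714), and with that array left out 6 genes rose and 8 fell. Those of ND-ASHI and ND-B22 were lost without wild type array 2B (0.218 and 0.152) and that of ATPsynO without 2C (0.218). GAPDH had a 3′ minus 5′ difference of -0.71 on the Pnt arrays against 0.16 in wild type, and the hybridization controls were at 10.2 against 9.32. All 14 genes passed with the eIF-4a covariate. Of the other pathway genes 2 rose, ox (0.70) and sun (1.15), and 7 fell. Idh3g (-2.24), mAcon1 (-0.92) and Idh3a (-0.76) had the largest decreases of the 7, and levy, porin, ScsbetaG and TFAM stood between -0.36 and -0.26.

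Activated Ras lowered 7 of these genes and raised none, against 2.12% of all probe sets that fell and 2.47% that rose. ND-20 read 7.88, 7.78 and 7.74 in Ras gain of function against 8.31, 8.14 and 8.25 (-0.44 ± 0.07, adjusted p = 0.000652), and ATPsyndelta fell by 0.28 ± 0.05 (adjusted p = 0.00173). For both genes every Ras array was below every wild type array, and both calls held without any single array. ATPsynO fell by 0.48 ± 0.11 (adjusted p = 0.0119) and ND-51 fell by 0.42 ± 0.09 (adjusted p = 0.00852), and ND-B14.7, ATPsynB and COX4 stood at -0.36, -0.32 and -0.29 (adjusted p = 0.0174, 0.016 and 0.0392). These 5 calls were lost without wild type array 2C, for ATPsynO, ATPsynB and COX4 (adjusted p = 0.0988, 0.096 and 0.222), or without wild type array 2B, for ND-51 and ND-B14.7 (0.0556 and 0.0966). Without wild type array 2A 11 genes fell, without 2B 3 did, without 2C 3 fell and 1 rose, and without Ras array 2C 4 fell. Among other pathway genes, RFeSP (-0.55), porin (-0.40), ScsbetaG (-0.84) and TFAM (-0.27) fell and blw rose (0.31).

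With both transgenes, Arm+Ras, 2 genes rose and none fell, and 1.37% of all probe sets rose and 1.05% fell. They were ATPsynCF6 (0.44 ± 0.09, adjusted p = 0.0113) and ND-MNLL (0.33 ± 0.08, adjusted p = 0.0208), and neither passed without wild type array 2A (adjusted p = 0.0654 and 0.123). Neither was called without Arm+Ras array 2A, and 1 of them was called without Arm+Ras array 2B, Arm+Ras array 2C or wild type array 2C. ND-15 read 8.38, 8.31 and 8.43 and differed by -0.17 ± 0.09 (adjusted p = 0.492) from wild type, and ND-20 read 8.40, 8.32 and 8.38 (0.14 ± 0.07, adjusted p = 0.56). The groups overlapped for ND-15, and for ND-20 the Arm+Ras arrays lay above wild type. Only ScsbetaG of the other pathway genes was called, at -0.86.

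**Figure D5:**
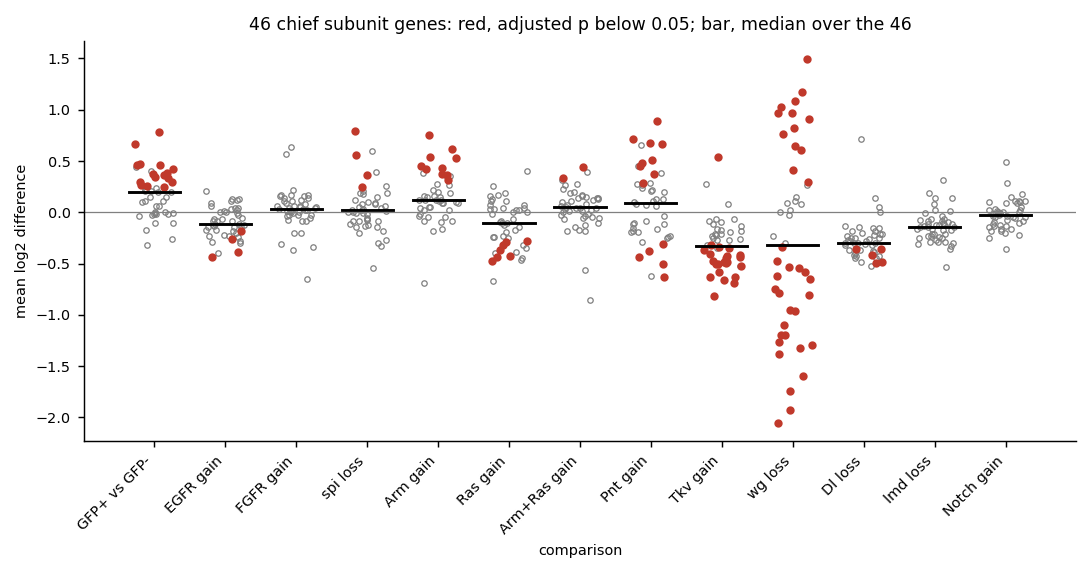
Mean log2 differences of the 46 chief subunit genes in each comparison (points, red where the adjusted p was below 0.05) with their median as a black bar. The medians lie above 0 for the gate (0.20) and below it for Tkv (-0.33), wg (-0.32) and Dl (-0.30), and only loss of wg spreads the genes over more than 3 log2 units.

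In Dl mutants, where the gene of a Notch ligand is affected, 5 genes fell and none rose, against 1.51% of all probe sets that fell and 0.859% that rose, while 51 of the 60 differences were negative. Their median was -0.28. Of 4 neural markers wor and pros rose (1.31 and 1.06), and the mean of that list was between 6.93 and 7.37 on the Dl arrays and between 6.09 and 6.41 in wild type. Of 6 mesoderm markers Him and lmd fell (-0.96 and -0.74) and htl rose (1.47), of 5 hemocyte markers Pxn fell (-1.18) and gcm rose (0.54), and of 5 ectoderm markers crb fell (-1.46). Their part in the result was not tested. ND-19, an accessory subunit of complex I, read 6.79, 6.87 and 6.90 in Dl mutants against 7.32, 7.28 and 7.42 in wild type (-0.48 ± 0.10, adjusted p = 0.0219), and UQCR-Q read 9.35, 9.26 and 9.28 against 9.58, 9.73 and 9.65 (-0.36 ± 0.09, adjusted p = 0.0442). The groups of both genes were separate. The differences of ND-B14.5A, ND-42 and COX8, which also fell, were -0.49 ± 0.11 (adjusted p = 0.0288), -0.41 ± 0.10 (adjusted p = 0.0368) and -0.35 ± 0.08 (adjusted p = 0.0255). Each of the 5 calls was lost when some single array was left out. The highest adjusted p were 0.107, 0.179, 0.118 and 0.104 for COX8, UQCR-Q, ND-B14.5A and ND-19 without wild type arrays 3A, 3B, 3B and 3C, and 0.158 for ND-42 without Dl array 3B. Left out in turn, Dl arrays 3A, 3B and 3C gave 3, 0 and 1 calls, and wild type arrays 3A, 3B and 3C gave 1, 1 and 0.

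No gene passed in lmd mutants, where the gene of a factor of fusion-competent myoblasts is affected, or in Notch gain of function, with limma and an unadjusted p below 0.05 for 8 and 2 genes. Of all probe sets 1.03% were called in lmd mutants and 1.48% in Notch gain of function. The medians of the 60 genes were -0.14 and -0.04. All 3 genotypes of set 3 had larger 3′ minus 5′ differences than wild type, with eIF-4a at 3.40 in Dl, 3.43 in lmd and 3.21 in Notch against 2.61, and without overlap. With the eIF-4a covariate 2 of the 5 calls in Dl mutants remained, ND-42 at -0.44 (adjusted p = 0.0389) and UQCR-Q at -0.42 (adjusted p = 0.018), while COX8, ND-19 and ND-B14.5A had adjusted p of 0.0549, 0.0548 and 0.0902. It gave 2 calls in lmd mutants and 3 in Notch gain of function.

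Compared with one another, the 3 genotypes share an age label. In Notch gain of function 6 genes were higher than in Dl mutants and none lower, against 2.55% of all probe sets that were higher and 2.81% lower, and against 5.90% and 6.47% of the brighter ones, among which 11 of 50 of these genes were higher. All 4 neural markers were lower, with a list mean between 4.95 and 5.42 on the Notch arrays and between 6.93 and 7.37 on the Dl arrays. Of 6 mesoderm markers htl was lower (-2.81) and Him and lmd were higher (1.45 and 0.94), of 5 hemocyte markers Pxn was higher (1.00) and ush lower (-0.72), and of 5 ectoderm markers shg was lower (-0.81). Their part in the result was not tested. COX7B read 9.41, 9.37 and 9.25 against 8.97, 8.95 and 8.91 (0.40 ± 0.07, adjusted p = 0.00371), and COX8 read 8.78, 8.75 and 8.79 against 8.48, 8.38 and 8.37 (0.36 ± 0.08, adjusted p = 0.0119). Neither gene overlapped between the groups. COX5A, UQCR-Q, ND-42 and ND-B14.5B were higher by 0.32, 0.32, 0.43 and 0.44. Only the call of COX7B held without any single array. The highest adjusted p were 0.0539, 0.194 and 0.0749 for COX8, COX5A and ND-B14.5B without Dl array 3C, 0.0774 for ND-42 without Dl array 3B and 0.186 for UQCR-Q without Notch array 3B. Without Dl array 3B, Dl array 3C or Notch array 3B, 2, 2 and 3 genes were called. All 6 calls remained with the eIF-4a covariate.

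Between lmd and Dl mutants no gene passed with limma (11 at an unadjusted p below 0.05), and 1.70% of all probe sets were called. Between lmd mutants and Notch gain of function COX8 was lower, at -0.33 ± 0.08 (adjusted p = 0.0285), against 1.38% of all probe sets that were lower and 2.23% higher, and the call was lost without lmd array 3C (adjusted p = 0.125) and without any one of the 3 Notch arrays. Without lmd array 3A 3 genes were called. Of the other pathway genes, porin (-0.38), ScsbetaG (-0.71), TFAM (-0.41) and mRpL12 (-0.57) fell in Dl mutants, Idh3g fell in lmd mutants (-1.44), and none passed in Notch gain of function. ScsbetaG (0.70), TFAM (0.79), mtSSB (0.45) and mRpL12 (0.64) were higher in Notch gain of function than in Dl mutants. In lmd mutants Idh3g was lower than in Dl mutants (-1.36) and than in Notch gain of function (-1.21), and TFAM was lower than in Notch gain of function (-0.42).

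Read gene by gene, the chief subunits differed in how often and which way they moved, over comparisons that share the wild type arrays of a set and are thus not independent. The genes called most often, in 5 of the 13 comparisons, were ATPsynO, ND-15 and ND-ACP. ATPsynO fell in each of the 5 genotypes in which it was called, at -0.43 in EGFR, -0.38 in Pnt, -0.48 in Ras, -0.36 in Tkv and -1.38 in wg. Between the gates it differed by -0.11 ± 0.06 (adjusted p = 0.282). ND-15 was at 0.55 in spi, 0.62 in Arm, 0.89 in Pnt, 1.50 in wg and -0.63 in Tkv, where it fell. In set 2 its GFP negative arrays, at 9.31, 9.30 and 9.31, were above the wild type GFP positive arrays. The gate difference of ND-15 over all sets was -0.31 ± 0.11 (adjusted p = 0.0544). ND-ACP was at 0.67 between the gates, 0.32 in Arm, 0.38 in Pnt, 0.61 in wg and -0.44 in Tkv.

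Subunits of one complex were not all called in the same comparisons or in the same direction. In complex III, UQCR-14 and UQCR-6.4 were called in Arm, Pnt, Tkv and wg, and UQCR-Q between the gates and in Dl mutants, of the gate and the 12 genotypes. UQCR-Q differed by 0.15 in wg mutants and -0.07 in Tkv gain of function, where it did not pass. In complex IV of wg mutants, COX4 was at -2.05 and COX7B at 0.91, both called, while COX5A and COX7A stood at 0.08 and 0.02 without passing. With the eIF-4a covariate COX4 kept its call, and COX7B, at 0.35, did not (adjusted p = 0.632). Whether these subunits differ from one another in response was not tested.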

How the data were processed

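The deposited table holds log2 expression values, 1 per probe set and array, deposited by the authors and computed with affy according to the submitters' processing notes. The background correction, normalization and summary method are not given in the sources used here, and base 2 was inferred from the range of the values, -3.08 to 13.6. Array medians lay near 4.6, 4.2 and 3.7 in sets 1, 2 and 3, so no level was set across sets. Array signals give no read depth, and the 3 arrays of a group limit the precision. Of 14010 probe sets 44 controls were left out, leaving 13966. Of these, 12443 name a single gene in the platform annotation, and 12394 of those were matched to RefSeq, which also supplied current symbols.

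Differences were fitted with limma 3.58.1 in R 4.3.3 (lmFit, and eBayes with a variance trend) with Benjamini-Hochberg adjustment over all probe sets and a threshold of 0.05. The gate fit was made on the 18 wild type arrays, blocked by set, and each genotype fit used all arrays of its set. The calculation was checked on simulated data. Named genes were all those called plus, in each class of subunits, the one with the highest mean and the one with the largest gate difference, and for the gate, Tkv and wg the 4 largest in each direction of a class are given with values. The genes and gene lists were chosen with earlier results of these data known. Array letters were not used to pair the samples in the main fits. The correlation of same-letter deviations lay between -0.03 and 0.14 and in no comparison exceeded 0.1 for every pair. For letter A of set 3, however, it was 0.11 to 0.14 in each pair of groups. Whether the letters mark a shared batch was not tested. Genes withheld from this work are not reported here. Alternatives left out the variance trend, each array and dim probe sets, averaged probe sets, fitted the compared groups alone, or added quantile normalization, the array letter or the eIF-4a control.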

Additional observations from a re-analysis of the deposited data

Results flagged for a closer look

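The difference between GFP positive and GFP negative wild type cells itself differed between the 3 sets for 14 genes, by limma's test over the gate and the set. The distance between the highest and the lowest of the 3 gate differences, on the log2 scale, was 1.08 for ND-18 and 0.976 for UQCR-6.4. It was 0.883 for COX4, 0.730 for ND-B16.6, 0.697 for ND-42, 0.695 for ND-15 and 0.641 for ND-20. For the subunits of ATP synthase it was 0.589 for ATPsynB, 0.585 for ATPsyndelta and 0.583 for ATPsyngamma. It was 0.537 for UQCR-14, 0.519 for COX8, 0.491 for COX7A and 0.428 for COX5A. No cause was tested. A signal also appeared in probe sets outside the main measurement, which the annotation assigns to a respiratory gene together with another gene. The probe set of ATPsynG and beat-Vb was higher in GFP positive cells by 0.307 and that of CG18809 and COX6B by 0.272, and which gene of each pair gave the signal cannot be told apart.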

How the results depend on the processing

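Numbers are the count of the 60 genes called, or of the 52 tested (50 in set 3) with the brighter probe sets only. The share of all probe sets called is given here for the brighter setting alone. Elsewhere a general rise or fall in calls cannot be told apart from one in these genes. The cause of each shift was not tested. Without the variance trend they were gate 11, difference between sets 4, EGFR 0, spi 1, Arm 4, Arm+Ras 0, Pnt 7, Ras 1, Tkv 15, Dl 0, Notch against Dl 0 and lmd against Notch 0. Set 3 alone gave 2 for the gate. With only the compared groups fitted they were EGFR 0, spi 2, Arm 2, Arm+Ras 0, Pnt 4, Ras 3, Dl 0, Notch against Dl 0 and lmd against Notch 0. With the array letter as a replicate block, which the main fits left out, they were FGFR 1, Arm+Ras 5, Pnt 22, Ras 11, Dl 19, lmd 4, Notch against Dl 18, lmd against Dl 4 and lmd against Notch 5. In 5 of 18 pairs of groups every array correlated best with its own letter. With the brighter probe sets only they were FGFR 1, Ras 11, Dl 9, lmd 1, Notch against Dl 11, lmd against Dl 2 and lmd against Notch 2. Of all brighter probe sets, 5.20% were called in FGFR, 11.3% in Ras, 6.64% in Dl and 2.68% in lmd. The shares were 12.4% for Notch against Dl, 4.34% for lmd against Dl and 8.25% for lmd against Notch. Averaging the probe sets of a gene gave Arm+Ras 1, and quantile normalization gave lmd against Notch 2. Without every array of letter A they were EGFR 1, spi 0, Arm+Ras 0, Dl 9, lmd 1, lmd against Dl 1 and lmd against Notch 2. With the eIF-4a covariate, added after seeing the data, they were EGFR 2, Arm+Ras 4, Tkv 11, wg 15, lmd 2, Notch 3, Notch against Dl 11, lmd against Dl 3 and lmd against Notch 2, and ND-MNLL, ND-B14.5B and ND-B12 had negative differences in wg mutants that did not pass, -0.148, -0.0393 and -0.600 (adjusted p = 0.843, 0.979 and 0.559). Leaving out single arrays gave 0 to 4 for EGFR, 0 to 1 for FGFR, 2 to 5 for spi, 6 to 11 for Arm, 0 to 2 for Arm+Ras, 3 to 11 for Ras, 0 to 3 for Dl, 2 to 8 for Notch against Dl, 0 to 3 for lmd against Notch, 8 to 16 for the difference between sets, 13 to 18 for the gate, 16 to 33 for Tkv, 10 to 14 for Pnt and 35 to 38 for wg. The median SD within a group was 0.42 for the second copies and 0.11 for the chief subunits, which sets the size of difference that could be called.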

Other observations

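Probe sets shared with another gene moved with the genes described above in some genotypes. That of ATPsynG and beat-Vb differed from wild type by 0.53 in Arm (adjusted p = 0.00343), 0.59 in Pnt (adjusted p = 0.000856) and 0.80 in wg (adjusted p = 5.94e-06). That of CG18809 and COX6B differed by 0.43 in Pnt (adjusted p = 0.00456) and 0.32 in wg (adjusted p = 0.0141). The second probe set of ND-MNLL differed by 0.57 in wg (adjusted p = 0.000219), 0.28 in Arm (adjusted p = 0.134) and -0.41 in Tkv (adjusted p = 0.0166).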
